A study of Mus musculus with 9 samples.

Results

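Mouse embryonic stem (ES) cells of 3 established lines were compared in 2 culture conditions, 2i and Serum, by RNA sequencing. The comparison used 6 of the 9 libraries of the series: 3 from 2i and 3 from Serum, each from E14, v6.5 or Oct4 GiP, and paired by line. E14 and v6.5 are widely used lines, and Oct4 GiP carries a reporter of Pou5f1, the gene of the pluripotency factor Oct4. All cells were kept on gelatin for 2 weeks at passages 20 to 23, without a drug named in the labels for either group. The labels give no composition for the medium called 2i. The remaining 3 libraries, Paused, came from the same lines kept for 2 weeks with 200 nM of INK128, which blocks the mTor kinase. They entered the model as a further condition. Each line gave 1 library per condition, so the 3 lines are the replicates. The fit takes out steady differences in level between lines. P-values therefore set the 2i to Serum difference against the spread that remains, which is how unevenly the conditions differed across these 3 lines. That spread was estimated over all 9 libraries, Paused included, and was moderated with the spread of other genes. Nothing in the labels says that a condition was grown more than once per line.

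The name 2i usually stands for medium with inhibitors of the kinase MEK, which activates ERK, and of the kinase GSK3, which marks beta-catenin for destruction. In serum, ERK signalling through FGF4 pushes ES cells towards differentiation, while LIF and BMP signals hold them in self-renewal. Cells in 2i are known for a uniform, naive state that resembles the inner cell mass of the blastocyst, with high levels of factors such as Nanog, Esrrb and Tfcp2l1 and low DNA methylation. Serum cultures are known for mixing cells in naive and more advanced states. In bulk RNA of this kind, fewer cells of a type and less RNA per cell cannot be told apart.

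Expression was given as FPKM (fragments per kilobase of transcript, scaled for library size), and the way of scaling between libraries is not stated. Tests were run on log2(FPKM + 1). Values of a gene are listed for E14, v6.5 and Oct4 GiP in that order, and log2 fold changes are 2i minus Serum ± the standard error of the limma fit. The ES cell identity of the libraries was seen in Pou5f1, Sox2, Zfp42, Utf1 and Dppa5a, which all stood above 85 FPKM in each of the 6 libraries, and in Nanog, which was lowest in the Serum library of v6.5 at 42.8 FPKM. That library also stood low for several other naive factors, as given below. Low FPKM values moved in steps of what 1 fragment is worth, and the most common step, shared by 12.7% to 16.03% of the low rows compared, gave a depth per FPKM of 1.07 to 1.23 in 2i and of 1 to 1.09 in Serum relative to E14 Serum (exact permutation test over 3 against 3 libraries, two-sided, p = 0.2, where the smallest possible p is 0.1). Rows without a gene name held 58.2% to 60.7% of summed FPKM in 2i and 54.7% to 64.0% in Serum (same exact permutation test, p = 0.9). The authors' second set of columns multiplies each library by 1 constant, which was 2.80 ± 0.36 in 2i and 3.59 ± 0.17 in Serum (SD, n = 3, exact permutation p = 0.1, the smallest possible). The constant was lower in 2i within each line, at 3.17, 2.45 and 2.76 against 3.74, 3.40 and 3.64. The permutation tests did not use the pairing by line. On the scale of those columns the median over all genes moved from 0.02 to -0.33.

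Genes were tested where 3 of the 9 libraries or more had an FPKM of at least 1. Of these 12711 genes, 2762 (21.7%) were higher and 2399 (18.9%) lower in 2i than in Serum (limma-trend, Benjamini-Hochberg adjusted p under 0.05). The changes were spread over both directions, and the median gene differed by 0.02 on the log2 scale. A difference of 1 or more was reached by 915 of the higher and 695 of the lower genes, and of 3 or more by 37 and 44. In 3250 genes (25.6%) all 2i libraries lay above all Serum libraries, and in 2843 (22.4%) they all lay below. The split depended on the scaling: the authors' normalized columns gave 1240 higher and 4538 lower genes, and centring each library on its median gene gave 2181 and 3263. With only the 6 libraries of 2i and Serum in the fit, 1645 and 1340 genes were called. Without the Serum library of Oct4 GiP, 1634 and 1335 were called, and without the 2i library of Oct4 GiP 1483 were lower.

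**Figure D1:**
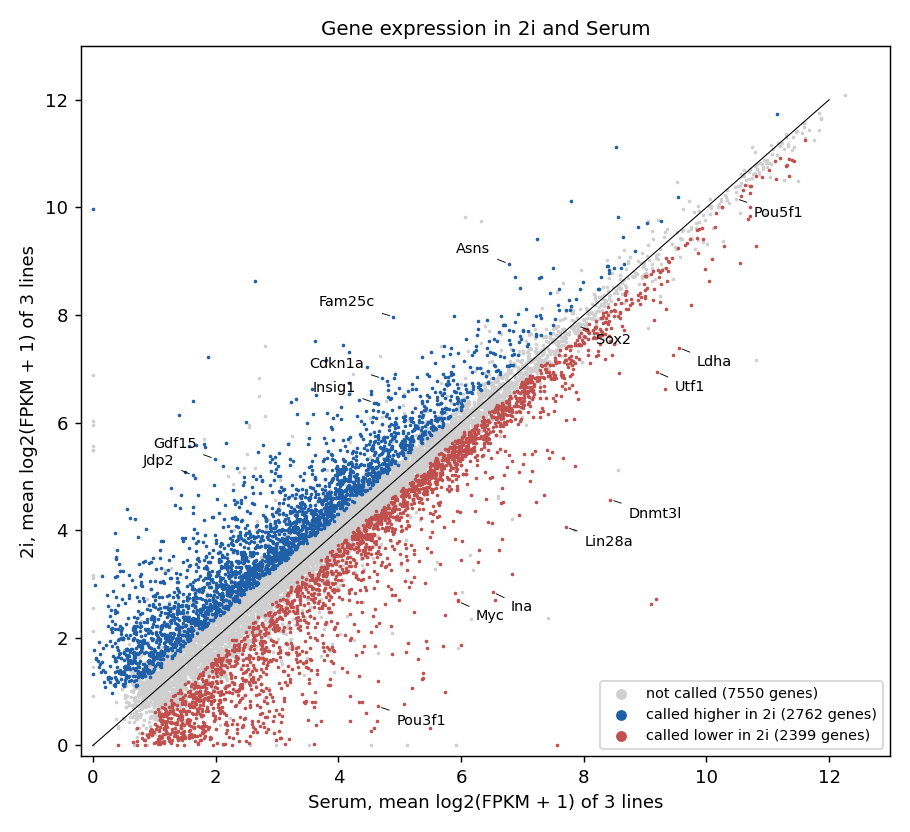
Mean log2(FPKM + 1) over 3 lines in Serum (x axis) and in 2i (y axis), 1 point per tested gene; blue points were called higher in 2i (2762 genes), red points lower (2399) and grey points were not called. Named genes lie far from the diagonal of equal level apart from Pou5f1 and Sox2, which sit near it; the farthest points along either axis are small RNA genes listed at 0 in a whole group.

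Several of the genes with the largest rises had little signal in Serum. Jdp2, a partner of AP-1 transcription factors, measured 3.23, 0.957 and 2.54 FPKM in Serum and 44.6, 20.98 and 33.3 FPKM in 2i (3.398 ± 0.23, adjusted p = 0.00077). Gdf15, a stress-induced secreted factor of the TGF-beta family, measured 3.06, 1.74 and 4.56 FPKM in Serum and 29.9, 38.5 and 52.2 in 2i (3.35 ± 0.23, adjusted p = 0.00079). Fetub, a secreted protease inhibitor needed for fertilization, measured 1.99, 2.94 and 1.68 FPKM in Serum and 25.4, 30.1 and 35.8 in 2i (3.303 ± 0.22, adjusted p = 0.00072). In all 3 genes every 2i library lay far above every Serum library. The homeobox gene Tlx2 went from 0.323, 0.247 and 0.332 FPKM to 15.4, 6.82 and 9.57 FPKM (3.09 ± 0.21, adjusted p = 0.00077). Irak1, a kinase of Toll-like and interleukin-1 receptor signalling, was already present in Serum at 17.9, 15.9 and 17.3 FPKM and stood at 177, 117 and 188 FPKM in 2i (3.13 ± 0.14, adjusted p = 0.00056). It differed from the others in its Paused level, which at 109, 106 and 112 FPKM lay nearer to 2i than to Serum. Aspa, which splits N-acetylaspartate, Hal, which breaks down histidine, and Qpct, a glutaminyl cyclase, rose too, by 3.51 ± 0.46, 3.17 ± 0.33 and 3.15 ± 0.33, each with non-overlapping groups.

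Falls of similar size included genes of neurites and of the cell surface. Ina, a neuronal intermediate filament, measured 86.7, 102 and 84.8 FPKM in Serum and 9.88, 5.47 and 4.33 FPKM in 2i (-3.67 ± 0.22, adjusted p = 0.00059). Crmp1, a regulator of neurite growth, measured 33.4, 51.8 and 32.5 FPKM in Serum and 4.25, 0.955 and 1.76 in 2i (-3.69 ± 0.39, adjusted p = 0.0017). Gap43, a growth cone protein, measured 11.5, 27.04 and 16.2 FPKM in Serum and 0.419, 0.09703 and 0.631 in 2i (-3.74 ± 0.30, adjusted p = 0.00092). Paused levels were near those of Serum for Ina (100.2, 92.9 and 97.6 FPKM) and Crmp1 (43.5, 66.3 and 34.7 FPKM) and between the other conditions for Gap43 (7.92, 6.85 and 9.702 FPKM). Car4, a membrane carbonic anhydrase, measured 9.15, 22.2 and 6.69 FPKM in Serum and was listed at 0, 0.0486 and 0.0225 FPKM in 2i (-3.57 ± 0.58, adjusted p = 0.0054).

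The gene lists described below fell on both sides of the median gene. The largest upward medians were those of cholesterol synthesis (0.90), ATF4 response genes (0.76) and lysosomal genes (0.61), and the largest downward ones those of formative factors (-1.51), 2-cell-like genes (-1.47) and ERK feedback genes (-1.03). The counts of the core, formative, ERK, cholesterol, ATF4, lysosome, ribosome biogenesis, glycolysis, epithelium, actin and imprinted lists in their main direction moved by no more than 1.5 times when any 1 of the 9 libraries was left out. Counts of most other lists moved further in at least 1 fit without 1 library. Within single lines the medians ranged most widely for 2-cell-like genes, from -3.03 in E14 to 0.05 in v6.5, and for naive factors, from 0.17 in E14 to 1.96 in v6.5.

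**Figure D2:**
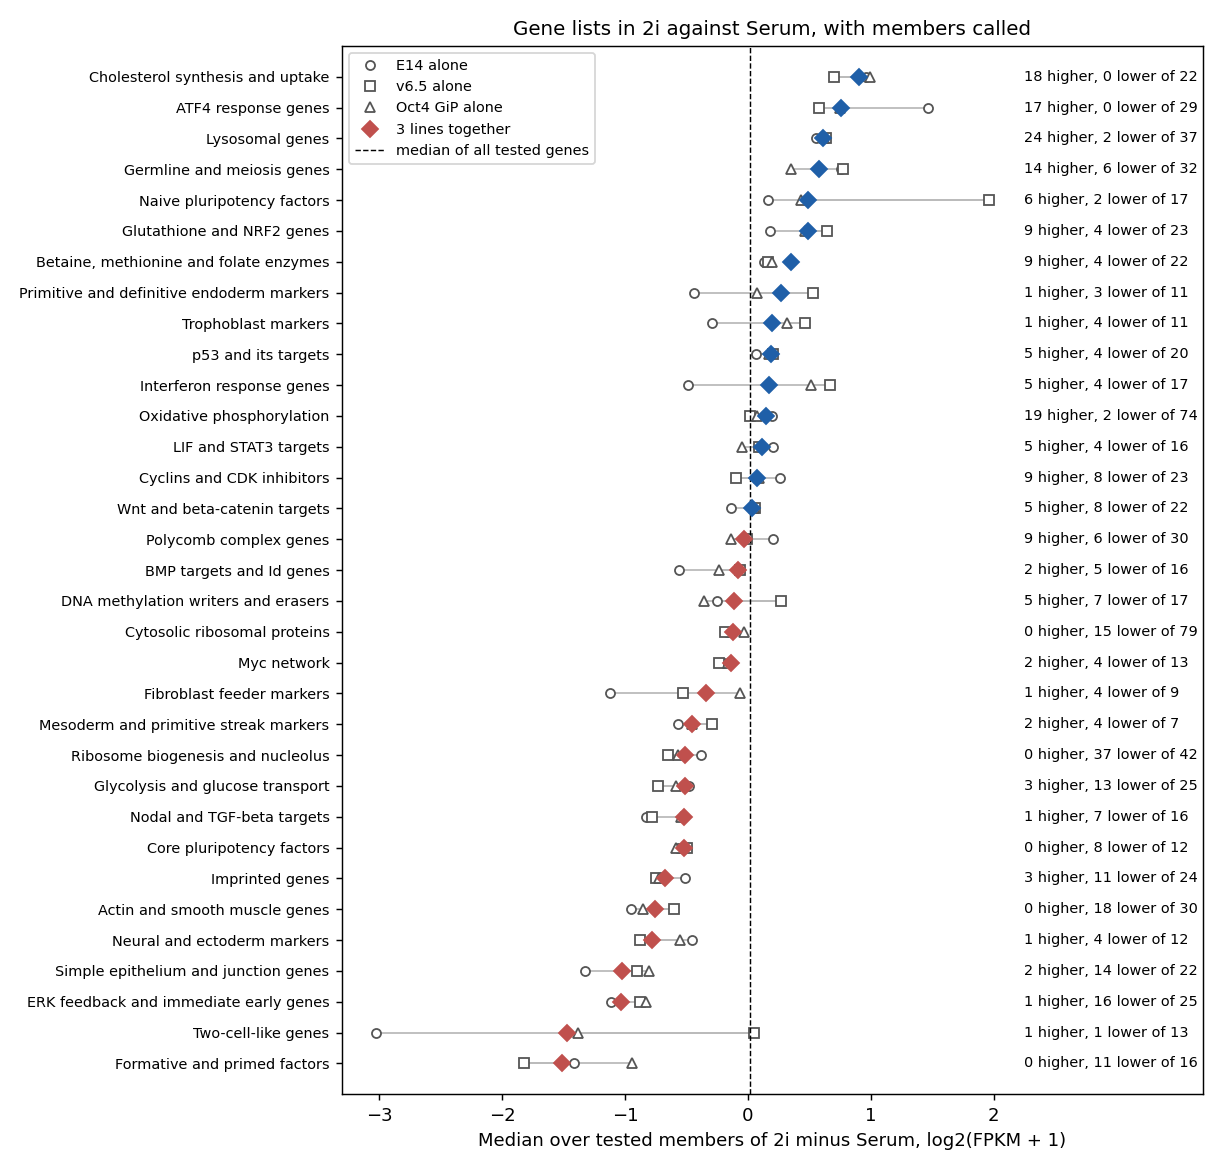
Median 2i minus Serum difference in log2(FPKM + 1) over the tested members of each gene list (x axis); filled diamonds are the 3 lines together (blue above 0, red below), open symbols single lines, the dashed line the median of all tested genes (0.02), and the counts on the right the members called. The 3 lines lie furthest apart for 2-cell-like genes and naive factors, and closest for lysosomal, core pluripotency, Myc and betaine genes.

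All 17 naive pluripotency factors were tested, and 6 rose and 2 fell, against 21.7% and 18.9% of all genes. Tfcp2l1, a transcription factor that on its own can sustain naive self-renewal, measured 49.6, 5.7 and 30.8 FPKM in Serum and 128, 142 and 122 FPKM in 2i (2.57 ± 0.56, adjusted p = 0.014). Tbx3, a T-box factor, measured 51.5, 4.46 and 19.6 FPKM in Serum and 89.1, 118 and 110.2 in 2i (2.55 ± 0.62, adjusted p = 0.02). Prdm14, a repressor of FGF receptor and Dnmt3 genes, measured 10.3, 0.749 and 6.699 FPKM in Serum and 19.7, 22.6 and 26.4 in 2i (2.15 ± 0.51, adjusted p = 0.018). In each of the 3 genes the 2i libraries were high and close to each other, and the spread lay in Serum, where v6.5 was lowest. Klf4 and Nanog followed the same order, with 81.6, 12.2 and 63.2 FPKM in Serum and 141, 166 and 139 FPKM in 2i for Klf4 (1.86 ± 0.52, adjusted p = 0.032), and 239, 42.8 and 185 FPKM in Serum and 329, 371 and 383 in 2i for Nanog (1.53 ± 0.46, adjusted p = 0.038). Without Serum Oct4 GiP these 5 genes had adjusted p of 0.050 (Tfcp2l1), 0.063 (Tbx3), 0.065 (Prdm14), 0.055 (Klf4) and 0.091 (Nanog). Prdm14 and Nanog also missed the threshold without Serum v6.5 (0.056 and 0.098), Tbx3, Klf4 and Nanog without 2i v6.5 (0.064, 0.086 and 0.062) or 2i Oct4 GiP (0.069, 0.067 and 0.066), and Klf4 and Nanog without any 1 Paused library (0.050 to 0.064). Groups did not overlap for 8 of the 17 factors in the upward direction, against 25.6% of all genes.

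Esrrb, at 156, 25.2 and 144 FPKM in Serum and 183, 248 and 234 FPKM in 2i, did not pass (1.39 ± 0.53, adjusted p = 0.079, or 0.045 without Serum E14), and neither did Klf2 (0.54 ± 0.36) or Zfp42 (0.32 ± 0.41). Dppa3, an oocyte and germ cell protein also known as Stella, fell from 28.7, 27.97 and 27.3 FPKM to 10.4, 4.98 and 5.19 FPKM (-1.95 ± 0.44, adjusted p = 0.015), with no overlap between the groups and an adjusted p of 0.054 without 2i v6.5 and 0.060 without Serum Oct4 GiP. The count of rises depended on single libraries: it was 0 without Serum Oct4 GiP, 9 without Serum E14, 2 without 2i v6.5 or 2i Oct4 GiP, and 3 without Serum v6.5 or any 1 Paused library. Without Serum v6.5 the median of the list was 0.26 in place of 0.49. With only the 6 libraries of 2i and Serum in the fit, 0 were called higher (limma adjusted p of Tfcp2l1 0.052).

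The core pluripotency factors did not share that direction: 0 of 12 rose and 8 fell. Pou5f1 measured 1458, 1237 and 1609 FPKM in Serum and 998, 1241 and 1215 FPKM in 2i (-0.32 ± 0.12, adjusted p = 0.072), and Sox2 measured 279, 189 and 255 FPKM in Serum and 204, 226 and 239 in 2i (-0.09 ± 0.16, adjusted p = 0.65). The groups of both genes overlapped. Both were called lower on the authors' normalized scale (-0.69 and -0.46), and Pou5f1 also after centring (-0.42), without 2i v6.5 (-0.45, adjusted p = 0.027) and without Serum v6.5 (-0.42, adjusted p = 0.049). Lin28a, an RNA-binding protein that blocks maturation of let-7 miRNAs, fell from 210.5, 257 and 169 FPKM to 32.9, 9.92 and 11.4 FPKM (-3.66 ± 0.35, adjusted p = 0.0015). Utf1, a chromatin-bound factor of ES cells, fell from 543, 719 and 508 to 121, 175 and 85.3 FPKM (-2.25 ± 0.11, adjusted p = 0.00056). Both had Paused levels near those of Serum, 254, 271 and 197 FPKM for Lin28a and 488, 621 and 405 FPKM for Utf1. A smaller fall was seen in Trim28, a corepressor of retroelements (-0.71 ± 0.11).

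Formative and primed factors mark the step from the naive state towards the epiblast after implantation. Of 16 tested, 0 rose and 11 fell, and in 12 the groups did not overlap in the downward direction, against 22.4% of all genes. Pou3f1 (Oct6), a POU factor of the epiblast and neural lineage, measured 17.2, 66.5 and 11.8 FPKM in Serum and 0.663, 0.853 and 0.467 FPKM in 2i (-3.92 ± 0.47, adjusted p = 0.0022). Grhl2, a factor that opens epithelial enhancers, fell from 18.7, 18.7 and 17.99 to 2.23, 1.23 and 3.53 FPKM (-2.61 ± 0.20, adjusted p = 0.0009). The 3 Serum values of Grhl2 were nearly equal, whereas v6.5 was the highest Serum library for Pou3f1. Fgf5, the classical marker of the epiblast, was low throughout, at 1.77, 3.34 and 1.14 FPKM in Serum and 0.0837, 0.133 and 0.113 FPKM in 2i (-1.41 ± 0.20, adjusted p = 0.0034). Otx2 was lower in each line, at 12.5, 20.9 and 7.62 against 0.691, 7.07 and 5.66 FPKM, and did not pass (-1.604 ± 0.61, adjusted p = 0.078, or 0.047 without 2i Oct4 GiP and 0.050 without Paused E14).

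DNA methylation is laid down by the de novo enzymes Dnmt3a and Dnmt3b with their cofactor Dnmt3l, and copied at replication by Dnmt1 with Uhrf1. Dnmt3l measured 363, 491 and 229 FPKM in Serum and 32.4, 45.1 and 7.69 FPKM in 2i (-3.86 ± 0.29, adjusted p = 0.00088). Dnmt3b measured 156, 358 and 77.6 FPKM in Serum and 50.2, 26.1 and 10.7 in 2i (-2.698 ± 0.35, adjusted p = 0.0029), and Dnmt3a 70.8, 258 and 55.8 FPKM in Serum and 25.01, 7.26 and 12.4 in 2i (-2.84 ± 0.69, adjusted p = 0.019). The groups of these 3 genes did not overlap, and v6.5 had the most of each in Serum. Dnmt3a missed the threshold without Serum v6.5 (adjusted p = 0.072) or Serum Oct4 GiP (0.062). Dnmt1 rose slightly, from 93.8, 97.5 and 98.6 to 119, 134 and 121 FPKM (0.36 ± 0.11, adjusted p = 0.042), and Uhrf1 rose by 0.64 ± 0.15 (adjusted p = 0.017). The rise of Dnmt1 is small enough to depend on the scaling. Over the whole list of writers and erasers 5 of 17 rose and 7 fell (29.4% and 41.2%, against 21.7% and 18.9% of all tested genes). On the authors' scale 2 rose and 7 fell. Without Serum v6.5 or Serum Oct4 GiP, 2 rose and 4 fell, 3 rose without 2i v6.5, and 4 fell without 2i Oct4 GiP. Tet1 and Tet2, which oxidize methylcytosine, did not pass (-0.11 ± 0.17 and 1.14 ± 0.38).

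**Figure D3:**
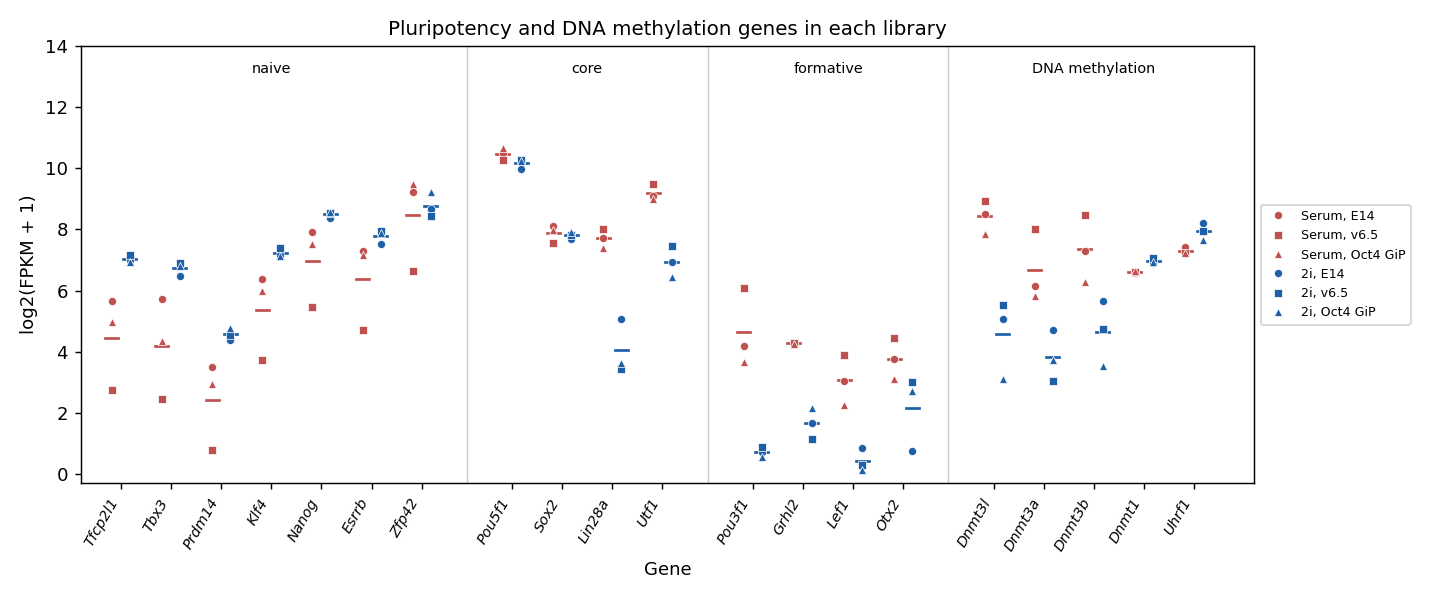
log2(FPKM + 1) of 20 pluripotency and DNA methylation genes in each library; red is Serum, blue is 2i, the symbol gives the line and the bar the mean of 3 libraries. The red squares (v6.5 in Serum) lie lowest for the 7 naive genes and highest for Dnmt3l, Dnmt3a and Dnmt3b, while Pou5f1 and Sox2 overlap between conditions.

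ERK signalling switches on immediate early genes and its own inhibitors, so that the levels of both are commonly read as a record of its activity. Of 25 such genes tested, 16 fell and 1 rose. Egr1, an immediate early zinc finger factor, measured 26.5, 27.03 and 16.99 FPKM in Serum and 0.192, 0.213 and 0.3705 FPKM in 2i (-4.26 ± 0.42, adjusted p = 0.0015). Among the feedback inhibitors, Spry4 fell from 31.8, 51.1 and 46.9 to 2.74, 3.699 and 1.49 FPKM (-3.62 ± 0.23, adjusted p = 0.0007), and Dusp4, a phosphatase of ERK in the nucleus, from 24.2, 18.1 and 16.5 to 0.583, 1.14 and 0.607 FPKM (-3.53 ± 0.34, adjusted p = 0.0015). No 2i library held more than 3.699 FPKM of any of the 3. Dusp6, which removes phosphate from ERK in the cytoplasm, kept a measurable level, with 31.1, 74.8 and 30.8 FPKM in Serum and 6.18, 7.84 and 7.55 FPKM in 2i (-2.39 ± 0.23, adjusted p = 0.0015). Spry2, related to Spry4, fell less, from 67.8, 92.5 and 69.5 to 33.8, 49.9 and 28.1 FPKM (-1.04 ± 0.11, adjusted p = 0.0017).

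The ETS factors induced by FGF signalling were not alike. Etv4 fell from 46.3, 69.6 and 59.4 to 24.3, 20.6 and 9.54 FPKM (-1.71 ± 0.32, adjusted p = 0.0081). Etv5, at 182, 96.8 and 157 FPKM in Serum and 118, 125 and 126 FPKM in 2i, overlapped between the groups (-0.19 ± 0.20, adjusted p = 0.49). It was called lower on the authors' normalized scale (-0.56) and without 2i v6.5 (-0.48, adjusted p = 0.027). Ier2, Il17rd and Spred2 did not pass either (-0.15 ± 0.11, -0.01 ± 0.19 and -0.25 ± 0.13). The single member that rose, Phlda3 (0.56 ± 0.14), is also a known p53 target. It was not called on the authors' scale, when libraries were centred, or without any 1 Serum library, 2i v6.5 or 2i Oct4 GiP, where 0 members were higher.

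Nodal, a ligand of the TGF-beta family, measured 46.5, 41.2 and 40.6 FPKM in Serum and 38.3, 69.7 and 66.2 FPKM in 2i and did not pass (0.39 ± 0.22, adjusted p = 0.19). Lefty1, a Nodal antagonist induced by Nodal, measured 39.8, 83.96 and 20.1 FPKM in Serum and 0.492, 0.456 and 5.31 FPKM in 2i (-4.13 ± 0.75, adjusted p = 0.0074). Lefty2 measured 35.7, 22.4 and 9.499 FPKM in Serum and 0.509, 0.967 and 11.5 in 2i (-2.64 ± 0.85, adjusted p = 0.047). In 2i both Lefty genes were highest in Oct4 GiP, and Lefty2 overlapped between the groups. Its call was lost without any 1 library other than 2i Oct4 GiP and Serum Oct4 GiP (adjusted p of 0.071 to 0.16). Skil, a SMAD corepressor, fell by 2.06 ± 0.30, and Pmepa1, an inhibitor of SMAD signalling, rose (1.23 ± 0.25). In all, 7 of 16 fell and 1 rose, and 4 fell without Serum Oct4 GiP.

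Id genes, which block helix-loop-helix factors and are induced by BMP, did not move alike. Id1 measured 72.7, 157 and 124 FPKM in Serum and 8.06, 5.76 and 11.3 FPKM in 2i (-3.64 ± 0.31, adjusted p = 0.001). Id3 measured 82.8, 66.2 and 55.97 FPKM in Serum and 16.99, 56.6 and 22.4 in 2i (-1.24 ± 0.39, adjusted p = 0.045), with v6.5 hardly changed, and its call was lost without any 1 library other than 2i v6.5 and Paused v6.5 (adjusted p of 0.064 to 0.14). Id4 did not pass (0.64 ± 0.58). The BMP transducer Smad1 rose (0.93 ± 0.14, adjusted p = 0.0039), as did the ligand Bmp7 (1.13 ± 0.13). Bmp4, at 44.1, 4.998 and 35.1 FPKM in Serum and 7.85, 9.44 and 8.81 FPKM in 2i, did not pass (-1.14 ± 0.59). Over the list, 5 of 16 fell and 2 rose (31.25% and 12.5%, against 18.9% and 21.7% of all tested genes). Without Serum E14, Serum Oct4 GiP or 2i Oct4 GiP, 3 fell.

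Of 22 Wnt and beta-catenin targets 5 were higher and 8 lower (22.7% and 36.4%, against 21.7% and 18.9% of all tested genes). The median of 0.04 turned to -0.32 on the authors' scale and to -0.07 after centring. Without Serum Oct4 GiP the counts were 3 and 5. Axin2, the most widely used reporter of this pathway, measured 7.86, 3.29 and 3.93 FPKM in Serum and 22.6, 6.77 and 7.0 FPKM in 2i (0.99 ± 0.43, adjusted p = 0.11). It was higher within each line, and the groups overlapped since E14 in Serum lay above both other lines in 2i. It passed with only the 6 libraries of 2i and Serum in the fit (adjusted p = 0.031), and without Paused E14 (0.040) or Paused v6.5 (0.042). Apcdd1, a Wnt inhibitor, rose from 3.05, 1.73 and 2.17 to 5.67, 11.3 and 11.2 FPKM (1.61 ± 0.28, adjusted p = 0.0067). Lef1, a nuclear partner of beta-catenin, fell from 7.34, 13.9 and 3.796 to 0.822, 0.241 and 0.111 FPKM (-2.63 ± 0.31, adjusted p = 0.0021). T (Brachyury), the primitive streak factor, stood at 15.1, 1.05 and 2.46 FPKM in Serum and 0.524, 0.231 and 0.402 FPKM in 2i (-1.81 ± 0.50, adjusted p = 0.029), with E14 well above the other lines in Serum. Its call was lost without 2i E14 (0.085), 2i Oct4 GiP (0.064), Serum Oct4 GiP (0.070) or Paused Oct4 GiP (0.052). Gsk3b and Tcf7l1, the kinase that the pathway restrains and its main repressor in ES cells, rose by 0.75 ± 0.10 and 0.49 ± 0.11.

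LIF acts through Stat3. Of 16 genes of this list 5 rose and 4 fell (31.25% and 25%, against 21.7% and 18.9% of all tested genes). Between 1 and 3 rose without Serum Oct4 GiP, 2i v6.5, 2i Oct4 GiP, Paused E14 or Paused Oct4 GiP. The receptor subunit Il6st rose (0.68 ± 0.15, adjusted p = 0.014), Stat3 rose slightly (0.24 ± 0.07, adjusted p = 0.037), and Socs3, its best known feedback target, did not pass (0.35 ± 0.12, adjusted p = 0.059). A rise as small as that of Stat3 depends on the scaling, and on the authors' scale 2 genes of the list rose and 6 fell. Gadd45g, a growth arrest gene, fell from 10.8, 20.9 and 6.01 to 1.18, 0.243 and 0.621 FPKM (-2.896 ± 0.55, adjusted p = 0.009).

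Myc and Mycn, transcription factors that drive growth and ribosome production, were among the most uniform falls. Myc measured 55.2, 63.3 and 64.6 FPKM in Serum and 3.804, 5.399 and 7.51 FPKM in 2i (-3.27 ± 0.15, adjusted p = 0.00056). Mycn measured 146, 196 and 194 FPKM in Serum and 33.4, 40.6 and 57.2 in 2i (-2.03 ± 0.19, adjusted p = 0.0014). Neither group overlapped, and the Paused levels, 66.5, 99.2 and 84.05 FPKM for Myc and 207, 149 and 199.8 FPKM for Mycn, were near or above those of Serum. Mycl and the shared partner Max did not pass (-0.13 ± 0.23 and -0.13 ± 0.08), while the Myc antagonists Mxd1 and Mxi1 rose by 0.46 ± 0.11 and 0.66 ± 0.12. On the authors' scale 0 of the 13 genes of the Myc network were called higher and 8 lower, in place of 2 and 4. Without 2i v6.5, 2i Oct4 GiP or Serum Oct4 GiP 1 was higher and 2 were lower, without Serum v6.5 1 was higher, and without Serum E14 2 were lower.

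Genes of ribosome biogenesis and the nucleolus fell with small and even steps: 37 of 42 tested were lower, 0 were higher, and the median was -0.51. Nhp2, a subunit of the snoRNA particles that modify ribosomal RNA, measured 397, 383 and 434 FPKM in Serum and 217, 186 and 228 FPKM in 2i (-0.94 ± 0.07, adjusted p = 0.0009). The nucleolar helicase Ddx21 measured 170.2, 204 and 169 FPKM in Serum and 99.5, 81.5 and 81.6 in 2i (-1.04 ± 0.11, adjusted p = 0.0018), and the nucleolar chaperone Nolc1 208, 219 and 227 FPKM in Serum and 111, 115 and 121 in 2i (-0.91 ± 0.07, adjusted p = 0.00092). In 40 of the 42 genes all 2i libraries lay below all Serum libraries, against 22.4% of all tested genes. The count of falls was 24 with only the 6 libraries of 2i and Serum, 17 without the 3 libraries of v6.5 and 11 without those of Oct4 GiP.

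Cytosolic ribosomal proteins moved far less, with a median of -0.12 over all 79, 15 of them lower (18.99%, against 18.9% of all tested genes) and 0 higher. Rplp0, of the ribosomal stalk, fell most (-0.52 ± 0.11, adjusted p = 0.012). Ribosomal protein genes share sequence with many pseudogenes, so their values are uncertain. With 6 libraries in the fit 0 members were called, leaving out any 1 library gave 1 to 9 falls, and 69 were lower on the authors' scale. Subunits of oxidative phosphorylation lay on the other side by a similar margin, with a median of 0.15. Of 74 tested, 19 were higher (25.7%, against 21.7% of all tested genes) and 2 lower (2.70%, against 18.9%). The count of rises was 4 with 6 libraries in the fit and 6 to 10 without any 1 Serum library, 2i v6.5 or 2i Oct4 GiP. The direction turned on the authors' scale, with 1 higher, 15 lower and a median of -0.22.

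Among regulators of the cell cycle, 9 of 23 rose and 8 fell (39.1% and 34.8%, against 21.7% and 18.9% of all tested genes). Inhibitors of CDKs and cyclins lay mostly on opposite sides. The count of falls was 4 or 5 without any 1 library of 2i or Serum other than 2i v6.5. Cdkn1a (p21) measured 24.8, 27.7 and 23.5 FPKM in Serum and 98.6, 107 and 134 FPKM in 2i (2.105 ± 0.17, adjusted p = 0.0009). Cdkn1b (p27) measured 16.9, 16.9 and 19.8 FPKM in Serum and 36.97, 40.5 and 42.02 in 2i (1.12 ± 0.08, adjusted p = 0.00088), and Cdkn2a, which encodes p16 and p19ARF, 7.49, 15.6 and 6.84 FPKM in Serum and 27.1, 27.6 and 39.8 in 2i (1.63 ± 0.30, adjusted p = 0.0083). Cdkn2c (p18) and Cdkn2d (p19) rose by 1.06 ± 0.11 and 1.07 ± 0.12. The exception was Cdkn1c (p57), an imprinted gene, which fell from 28.2, 71.02 and 33.02 to 0.559, 1.68 and 2.96 FPKM (-4.03 ± 0.43, adjusted p = 0.0017).

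Cyclins fell or did not pass. Ccnd1 fell from 100.2, 112 and 100.5 to 51.7, 38.7 and 41.4 FPKM (-1.24 ± 0.18, adjusted p = 0.0037), Ccne1 by 1.05 ± 0.20 and Ccnd2 by 2.22 ± 0.53, while Ccnd3 did not pass (0.70 ± 0.27). Ccnd2 lost its call without 2i E14 (adjusted p = 0.055), 2i Oct4 GiP (0.075), Serum v6.5 (0.074) or Serum Oct4 GiP (0.054). The mitotic cyclins Ccna2 and Ccnb2 fell slightly, by 0.35 ± 0.09 and 0.35 ± 0.11, and Cdk1 did not pass (0.07 ± 0.10). E2f1 rose (0.89 ± 0.11, adjusted p = 0.0026), as did the pocket proteins Rbl1 and Rbl2 (0.79 ± 0.14 and 0.57 ± 0.14).

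Of 20 genes of the p53 list 5 rose and 4 fell, near the shares of all tested genes (21.7% and 18.9%), and on the authors' scale 3 rose and 6 fell. Trp53 itself fell by 0.53 ± 0.07. Rises numbered 8 without 2i E14 and 3 without any other library of 2i or Serum. Besides Cdkn1a, Sesn1 rose (1.44 ± 0.17), while the common p53 targets Mdm2, Ccng1 and Bax did not pass (0.19 ± 0.15, 0.38 ± 0.22 and -0.07 ± 0.08), and Pmaip1 (Noxa) fell by 1.93 ± 0.23.

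**Figure D4:**
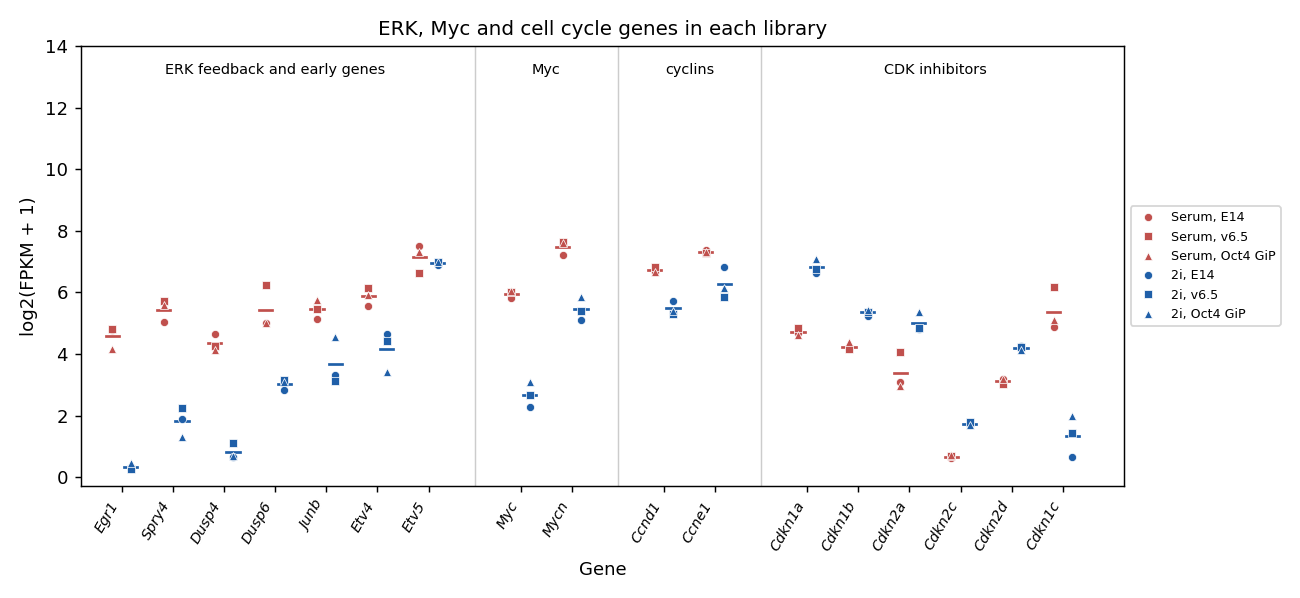
log2(FPKM + 1) of ERK, Myc and cell cycle genes in each library; red is Serum, blue is 2i, the symbol gives the line and the bar the mean of 3 libraries. Egr1, Spry4 and Dusp4 drop towards 0, Etv5 overlaps between conditions, and the CDK inhibitors rise apart from Cdkn1c.

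Glycolysis splits glucose to pyruvate, which ES cells in Serum turn largely into lactate. Of 25 genes tested 13 fell and 3 rose. Ldha, which makes lactate, measured 660.5, 1059 and 598 FPKM in Serum and 231, 155 and 129.8 FPKM in 2i (-2.16 ± 0.21, adjusted p = 0.0016). Pkm, which makes pyruvate, measured 1820.2, 2230.0 and 1394 FPKM in Serum and 723, 602 and 551 in 2i (-1.52 ± 0.13, adjusted p = 0.001), and the glucose transporter Slc2a1 (Glut1) 258, 209 and 253 FPKM in Serum and 99.01, 72.01 and 87.4 in 2i (-1.47 ± 0.18, adjusted p = 0.0025). All 3 had fully separate groups. In Paused cells Ldha and Slc2a1 also lay below Serum, at 282, 293 and 220.0 FPKM and 126, 102 and 69.3 FPKM.

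At 1 step of the pathway, 2 isoforms changed in opposite directions. Pfkl, the liver form of phosphofructokinase, fell from 135, 147 and 90.9 to 45.98, 32.2 and 24.1 FPKM (-1.86 ± 0.17, adjusted p = 0.0013), while Pfkp, the platelet form, stood at 94.96, 17.1 and 46.5 FPKM in Serum and 119.7, 111 and 127 in 2i (1.46 ± 0.43, adjusted p = 0.035). Hexokinase 1 (Hk1) rose from 18.4, 5.56 and 10.7 to 53.7, 43.4 and 46.8 FPKM (2.097 ± 0.27, adjusted p = 0.0026), and Hk2 did not pass, at 82.4, 78.9 and 84.6 FPKM in Serum and 98.3, 68.5 and 81.9 in 2i (adjusted p = 0.9952). Ldhb, which favours the reverse reaction to Ldha, did not pass (0.999 ± 0.36, adjusted p = 0.069). Among Serum libraries, Hk1, Pfkp and Ldhb were each lowest in v6.5. Gapdh and Aldoa, 2 abundant enzymes of the middle of the pathway, did not pass (-0.32 ± 0.12 and -0.28 ± 0.11).

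Cholesterol synthesis had the largest share of rises among the lists: 18 of 22 tested members were higher and 0 lower, with medians of 0.97, 0.70 and 0.998 in the 3 lines. These genes are known as targets of the factor SREBP2, encoded by Srebf2, which is released when sterols in the endoplasmic reticulum run low. Srebf2 measured 54.6, 60.03 and 46.4 FPKM in Serum and 115, 95.5 and 99.8 FPKM in 2i (0.94 ± 0.15, adjusted p = 0.0047). Hmgcs1, the entry enzyme of the pathway, measured 52.98, 67.3 and 37.6 FPKM in Serum and 106, 141 and 114 in 2i (1.202 ± 0.21, adjusted p = 0.0063). In both genes the lowest 2i library stood above the highest Serum library.

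A feedback gene moved with the enzymes. Insig1, which retains SREBP in the endoplasmic reticulum and is itself a target, measured 25.6, 30.3 and 15.4 FPKM in Serum and 89.4, 78.5 and 77.8 in 2i (1.79 ± 0.29, adjusted p = 0.005). Late enzymes rose as well, with 1.77 ± 0.23 for Msmo1 and 1.42 ± 0.15 for Fdft1, whereas Idi1 did not pass (0.29 ± 0.20). On the authors' normalized scale 9 of the 22 were higher and 0 lower. The Paused values of Hmgcs1, 25.2, 29.1 and 35.7 FPKM, were below those of Serum.

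Promoter sequences from RefSeq (GRCm38.p6, 250 bases before to 50 after each start) were searched for a sterol regulatory element, spelled TCACNCCAC and its reverse complement. It was present in 1 of 19 windows of 16 matched cholesterol genes (5.26%) and in 1.24% of all 32851 windows. The match lay in Hmgcs1, on chromosome 13. The 250 bases before its start, at chr13:119690101-119690350 on the plus strand, are shown with the match in capitals because this gene opens the pathway and rose in all lines:

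Hmgcs1: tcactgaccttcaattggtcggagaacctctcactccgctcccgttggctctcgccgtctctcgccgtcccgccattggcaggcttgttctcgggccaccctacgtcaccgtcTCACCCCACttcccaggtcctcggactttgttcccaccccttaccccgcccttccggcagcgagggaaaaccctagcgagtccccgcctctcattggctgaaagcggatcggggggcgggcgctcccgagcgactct

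ATF4 is a transcription factor translated when amino acids are short or the endoplasmic reticulum is stressed, and it induces genes of amino acid synthesis, transport and tRNA charging. Of 29 such genes 17 rose and 0 fell. Atf4 itself measured 159, 201 and 166 FPKM in Serum and 289, 363 and 373 FPKM in 2i (0.96 ± 0.11, adjusted p = 0.0021). Asns, asparagine synthetase, measured 172, 79.6 and 93.4 FPKM in Serum and 634, 535 and 355 in 2i (2.17 ± 0.18, adjusted p = 0.001). Atf5, a related factor, measured 13.7, 8.43 and 17.3 FPKM in Serum and 86.4, 35.1 and 44.2 in 2i (1.94 ± 0.28, adjusted p = 0.0039). None of these groups overlapped, and E14 in 2i was the highest library for Asns and Atf5 but the lowest of the 3 in 2i for Atf4.

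The E14 line showed the widest rise for the list, with a median of 1.46, while v6.5 had 0.58 and Oct4 GiP 0.75. Pycr1, of proline synthesis, went from 10.5, 5.41 and 10.7 to 48.7, 18.03 and 23.7 FPKM (1.59 ± 0.20, adjusted p = 0.0027), and Vegfa, the endothelial growth factor, from 7.36, 3.94 and 6.09 to 38.99, 17.6 and 22.6 FPKM (1.97 ± 0.15, adjusted p = 0.0009). Chac1, which degrades glutathione, stood at 16.6, 14.9 and 18.9 FPKM in Serum and 86.8, 22.7 and 40.3 in 2i (1.32 ± 0.32, adjusted p = 0.019). The transfer RNA ligases Cars and Nars rose (1.04 ± 0.11 and 0.76 ± 0.16), while Sars and Wars did not pass (0.31 ± 0.15 and 0.14 ± 0.11). Ddit3 (CHOP) and Atf3, both known as late members of the response, did not pass (0.35 ± 0.21 and 0.24 ± 0.22).

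A core of the ATF4 response element, spelled TGATGNAA and its reverse complement, was found in 8 of 27 promoter windows of 24 matched genes (29.6%) and in 3.97% of all windows. The 6 members that rose and hold a match are Asns, Chac1, Gars, Nupr1, Pycr1 and Trib3. The match with 10 bases on each side is given 5′ to 3′ on the strand of the gene, with the match in capitals, so that the shared core can be compared. Chac1, Gars, Nupr1 and Trib3 carry it in reverse complement:

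Asns, chr6:7693215-7693242, minus strand: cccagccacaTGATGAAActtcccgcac

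Chac1, chr2:119351039-119351066, plus strand: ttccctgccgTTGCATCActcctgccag

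Gars, chr6:55037961-55037988, plus strand: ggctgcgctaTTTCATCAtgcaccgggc

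Nupr1, chr7:126625563-126625590, minus strand: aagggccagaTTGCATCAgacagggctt

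Pycr1, chr11:120643834-120643861, minus strand: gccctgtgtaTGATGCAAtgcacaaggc

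Trib3, chr2:152344029-152344056, minus strand: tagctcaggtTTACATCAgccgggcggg

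The match began 23 bases before the start in Asns, 103 in Pycr1, 193 in Chac1, 110 in Nupr1 and 30 in Gars, and 14 bases after it in Trib3. Nupr1, Trib3 and Gars rose by 3.37 ± 0.19, 1.55 ± 0.16 and 0.60 ± 0.19. Atf5 and Vegfa, described above, have no match in the window. Slc7a11 and Atf3 hold a match and did not pass (-0.33 ± 0.17 and 0.24 ± 0.22).

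Lysosomes digest proteins, lipids and sugars taken up or recycled by the cell. Of 37 lysosomal genes tested 24 rose and 2 fell. Ctsb, the protease cathepsin B, measured 13.8, 13.9 and 14.2 FPKM in Serum and 41.7, 39.05 and 43.1 FPKM in 2i (1.498 ± 0.08, adjusted p = 0.00056). Hexa, a subunit of hexosaminidase, measured 23.3, 17.7 and 16.1 FPKM in Serum and 68.2, 66.9 and 71.1 in 2i (1.82 ± 0.14, adjusted p = 0.0009), and the membrane protein Lamp2 7.06, 5.8 and 6.79 FPKM in Serum and 22.4, 24.8 and 28.8 in 2i (1.797 ± 0.11, adjusted p = 0.00066). The values of each condition lay close together in the 3 lines, and the 2 ranges were far apart. Asah1, acid ceramidase, rose by 1.604 ± 0.18. Scarb2, which carries glucocerebrosidase to the lysosome, fell (-1.02 ± 0.19), and Lipa, Cd68 and Gla did not pass (-0.14 ± 0.17, 0.02 ± 0.24 and 0.15 ± 0.11). The count was 14 higher and 3 lower on the authors' normalized scale.

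Many lysosomal genes are known to carry the CLEAR element bound by TFEB. Its core TCACGTGA, which reads the same on both strands and contains the E-box CACGTG, was found in 5 of 35 promoter windows of 31 matched genes (14.3%) and in 0.974% of all windows. The 4 members that rose and hold it are shown, and their stretches are given in the same form to show the shared core and its place near the start:

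Atp6v0d1, chr8:105566051-105566078, minus strand: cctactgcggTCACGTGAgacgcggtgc

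Ctsa, chr2:164833750-164833777, plus strand: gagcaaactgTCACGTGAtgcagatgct

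Ctsd, chr7:142387909-142387936, minus strand: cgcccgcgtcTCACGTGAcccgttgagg

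Mcoln1, chr8:3500463-3500490, plus strand: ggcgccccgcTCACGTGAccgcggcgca

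It began 4 bases before the start in Atp6v0d1, 13 in Ctsa, 99 in Ctsd and 46 in Mcoln1, and Ctsa holds a further match 4 bases after the start. Gla, which did not pass, holds 2 matches. The rises of these genes were 0.30 ± 0.07, 1.16 ± 0.18, 0.85 ± 0.08 and 0.61 ± 0.13, and those of Ctsb, Hexa and Lamp2, without a match in the window, were larger. The remaining searches were of lists that did not move together or fell. CACGTG was found in 14.3% of windows of ribosome biogenesis genes and in 7.15% of all windows. The TCF/LEF spellings CTTTGAA and CTTTGTT were found in 9.68% and 19.4% of windows of the Wnt list, against 5.14% and 5.85% of all. TTCNNNGAA was found in 11.1% of windows of the LIF list, against 8.30% of all, and the ETS spelling CCGGAAG in 0 of 27 windows of ERK genes, against 8.86% of all.

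Glutathione and NRF2 genes protect against oxidants and electrophiles. Of 23 tested 9 rose and 4 fell (39.1% and 17.4%, against 21.7% and 18.9% of all tested genes). Without Serum v6.5 or Serum Oct4 GiP 2 fell. Nqo1, a quinone reductase and classical NRF2 target, measured 9.02, 15.6 and 15.8 FPKM in Serum and 30.8, 116 and 99.6 FPKM in 2i (2.35 ± 0.26, adjusted p = 0.0018), with E14 lowest in both conditions. Gpx2, a glutathione peroxidase, measured 9.09, 8.92 and 4.39 FPKM in Serum and 40.3, 48.4 and 39.4 in 2i (2.42 ± 0.39, adjusted p = 0.0052). NRF2 itself, encoded by Nfe2l2, and its inhibitor Keap1 rose by 1.06 ± 0.11 and 1.12 ± 0.15. Other known NRF2 targets did not share the direction: Txnrd1, Gclc and Gclm did not pass (-0.13 ± 0.13, -0.02 ± 0.18 and -0.12 ± 0.14), and Hmox1 fell from 87.04, 169 and 133 to 69.5, 85.9 and 76.5 FPKM (-0.69 ± 0.16, adjusted p = 0.015).

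Enzymes of one-carbon metabolism split in a like manner, with 9 of 22 higher and 4 lower (40.9% and 18.2%, against 21.7% and 18.9% of all tested genes). The betaine enzyme Bhmt2 rose from 0.526, 0.182 and 0.207 to 6.78, 9.54 and 16.5 FPKM (3.12 ± 0.28, adjusted p = 0.0013). Cth, which makes cysteine, rose from 44.01, 33.7 and 26.6 to 152, 99.4 and 56.4 FPKM (1.45 ± 0.16, adjusted p = 0.0018). Gldc, the glycine decarboxylase, fell from 85.5, 71.9 and 39.4 to 39.8, 17.2 and 10.3 FPKM (-1.64 ± 0.27, adjusted p = 0.0056). Tdh, the threonine dehydrogenase of mouse ES cells, did not pass (0.94 ± 0.33, adjusted p = 0.063).

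**Figure D5:**
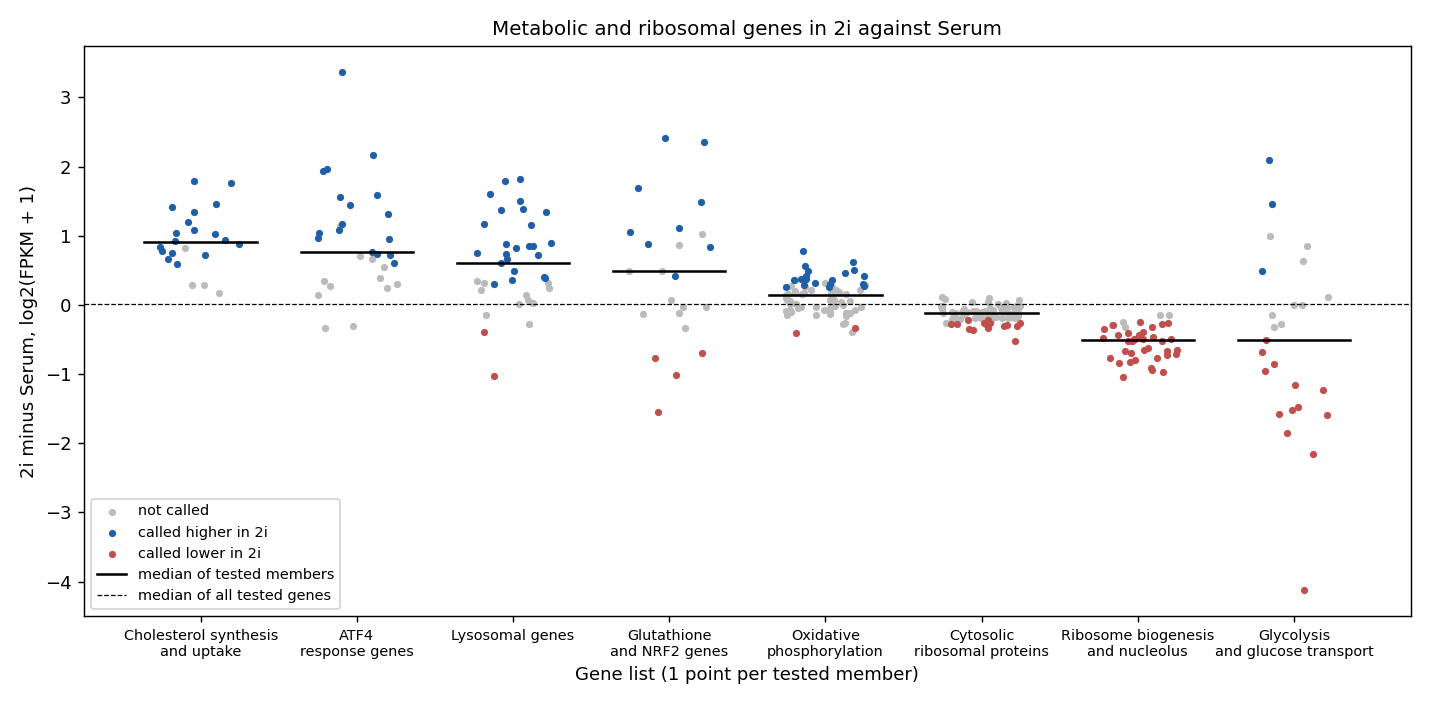
2i minus Serum difference in log2(FPKM + 1) of each tested member of 8 metabolic and ribosomal gene lists; blue points were called higher, red lower, grey not called, bars are medians of tested members and the dashed line is the median of all tested genes (0.02). Cholesterol and ATF4 genes hold no red point, ribosome biogenesis genes no blue one, and glycolysis genes spread in both directions.

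Germline and meiosis genes, many of them silenced by promoter methylation in other cells, rose in 14 of 32 cases and fell in 6. These shares were 43.75% and 18.75%, against 21.7% and 18.9% of all tested genes, so the falls were near the share of all genes. Falls numbered 3 without 2i v6.5 or 2i Oct4 GiP. Fkbp6, a partner of the piRNA machinery, measured 4.12, 3.01 and 5.52 FPKM in Serum and 51.4, 37.99 and 21.3 FPKM in 2i (2.803 ± 0.39, adjusted p = 0.0033). Tex13 measured 0.106, 0.0813 and 0.152 FPKM in Serum and 17.3, 4.01 and 6.705 in 2i (2.999 ± 0.36, adjusted p = 0.0022). Asz1, Hormad1 and Tex19.1 rose by 1.39 ± 0.17, 1.62 ± 0.26 and 1.43 ± 0.24, all with non-overlapping groups. For Fkbp6 and Tex13 E14 was the highest 2i library. Other germ cell genes went the opposite way: Ddx4 (Vasa), Tdrd1 and Dpep3 fell by 1.03 ± 0.31, 1.08 ± 0.16 and 1.57 ± 0.30. Synaptonemal genes Sycp1 and Sycp3 did not pass (0.30 ± 0.20 and 0.01 ± 0.32).

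Genes of the 2-cell-like state mark a rare state of ES cells. Zscan4b was called lower at 29.1, 4.37 and 18.8 FPKM in Serum and 0.4297, 3.998 and 2.65 FPKM in 2i (-2.31 ± 0.75, adjusted p = 0.049). In v6.5 the 2 values hardly differed, and the call was lost without any 1 library other than Serum v6.5 and 2i v6.5 (adjusted p of 0.067 to 0.16). The near-identical Zscan4 copies share fragments and cannot be separated. Zfp809, a silencer of retroviruses, was the only member called higher (1.07 ± 0.11). Zscan4b was the only one of 13 members called lower in all libraries together, while 8 were called lower without Serum v6.5, 5 without 2i v6.5 and 0 in the other 7 fits without 1 library. The count was 8 on the authors' scale and 4 without the line as a block.

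Of 24 imprinted genes tested 11 fell and 3 rose; a further 5 stand on rows that join several genes and were not assigned. Peg10, a retrotransposon-derived gene of the placenta, measured 96.7, 80.8 and 104 FPKM in Serum and 4.03, 5.42 and 7.72 FPKM in 2i (-3.85 ± 0.48, adjusted p = 0.0024). Igf2, a growth factor, fell from 9.37, 2.89 and 7.79 to 0.0856, 0.0841 and 0.408 FPKM (-2.58 ± 0.31, adjusted p = 0.0023). Its clearance receptor Igf2r, expressed from the other parental allele, rose from 13.8, 12.2 and 11.2 to 24.03, 19.8 and 20.6 FPKM (0.74 ± 0.08, adjusted p = 0.0019). Plagl1 (Zac1), a zinc finger regulator of other imprinted genes, was the largest rise, from 0.4301, 1.93 and 1.58 to 16.2, 10.7 and 12.2 FPKM (2.65 ± 0.35, adjusted p = 0.003). Impact did not pass (0.09 ± 0.26).

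Polycomb genes encode complexes PRC1 and PRC2, which place repressive marks on histones. Of 30 tested 9 rose and 6 fell (30.0% and 20.0%, against 21.7% and 18.9% of all tested genes), and on the authors' scale 6 rose and 11 fell. The count of falls was 3 without Serum E14, Serum Oct4 GiP, 2i Oct4 GiP or Paused E14. Cbx8, a chromobox reader of histone methylation, rose from 0.6197, 1.198 and 1.03 to 4.75, 4.36 and 3.304 FPKM (1.399 ± 0.16, adjusted p = 0.0021). Cbx7, the main reader of ES cells, did not pass (-0.27 ± 0.11). Bmi1 (Pcgf4) rose from 1.24, 2.01 and 2.52 to 9.56, 6.63 and 7.35 FPKM (1.61 ± 0.22, adjusted p = 0.0033), and Pcgf1 by 1.23 ± 0.15. Phc1 fell from 166, 230.1 and 171 to 94.6, 93.3 and 84.1 FPKM (-1.04 ± 0.10, adjusted p = 0.0015). In PRC2 the catalytic Ezh2 did not pass (0.03 ± 0.09), Suz12 and Aebp2 rose (0.70 ± 0.12 and 1.08 ± 0.21), and Jarid2 and Eed fell by 1.06 ± 0.15 and 0.56 ± 0.17.

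Epithelial and actin genes were lower in 2i. Of 22 genes of simple epithelia and junctions 14 fell and 2 rose. Cldn6, a tight junction claudin, measured 56.9, 82.9 and 27.9 FPKM in Serum and 4.39, 2.596 and 1.45 FPKM in 2i (-3.84 ± 0.22, adjusted p = 0.00056). Esrp1, an epithelial splicing regulator, measured 22.9, 27.97 and 12.1 FPKM in Serum and 0.931, 0.906 and 0.478 in 2i (-3.57 ± 0.19, adjusted p = 0.00056), and the adhesion molecule Epcam 79.4, 171 and 76.9 FPKM in Serum and 23.6, 28.1 and 15.8 in 2i (-2.16 ± 0.19, adjusted p = 0.0012). E-cadherin (Cdh1), in contrast, did not pass (0.12 ± 0.09, adjusted p = 0.31). The 2 rises included the connexin Gjb5 (1.36 ± 0.44), which did not pass without Serum v6.5 or without Serum Oct4 GiP.

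Of 30 actin and smooth muscle genes 18 fell and 0 rose. Cnn1 (calponin 1) measured 10.6, 6.64 and 4.67 FPKM in Serum and 0.0644, 0.104 and 0.0694 FPKM in 2i (-2.88 ± 0.20, adjusted p = 0.00077), and tropomyosin Tpm2 14.9, 15.4 and 10.9 FPKM in Serum and 1.81, 1.38 and 0.561 in 2i (-2.74 ± 0.14, adjusted p = 0.00056). Abundant actins fell less, Actb by 0.52 ± 0.13 and Actg1 by 0.87 ± 0.25. Vim (vimentin) and Vcl (vinculin) did not pass (0.53 ± 0.53 and -0.24 ± 0.13). The YAP and TGF-beta targets Cyr61 and Ctgf fell by 1.85 ± 0.45 and 1.68 ± 0.36.

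Of 17 interferon response genes 5 rose and 4 fell (29.4% and 23.5%, against 21.7% and 18.9% of all tested genes), or 2 fell without Serum E14 or Serum Oct4 GiP. Ly6a (Sca-1) measured 5.09, 0 and 6.02 FPKM in Serum and 62.95, 14.8 and 114 FPKM in 2i (3.801 ± 0.58, adjusted p = 0.0045), and Oas1a, a sensor of double-stranded RNA, 7.37, 0.492 and 2.38 FPKM in Serum and 22.4, 9.75 and 9.33 in 2i (1.98 ± 0.26, adjusted p = 0.0029). Bst2 (tetherin) fell by 1.83 ± 0.25, and the immunoproteasome subunits Psmb8 and Psmb9 by 1.95 ± 0.44 and 1.39 ± 0.30. Psmb8 lost its call without Serum E14 (adjusted p = 0.053) or Serum Oct4 GiP (0.056). Another 9 members, among them Isg15, Irf7 and Ifit1, were below the filter on low values.

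Markers of other cell types were mostly low in both conditions, and where they moved they are given with the lists they overlap. The 5 marker lists had 1 to 4 members called in each direction, and in each list the count of at least 1 direction moved by more than 1.5 times without 1 library. Of 18 trophoblast markers 5 were below 1 FPKM in all 6 libraries, and their summed level was 338.9, 76.5 and 149.9 FPKM in Serum and 88.9, 74.8 and 82.5 in 2i. Most of the Serum sum came from keratins, Krt8 at 161, 24.4 and 62.6 FPKM and Krt18 at 108, 18.7 and 36.4 FPKM, which stood at 6.72, 12.8 and 11.3 and 4.21, 3.03 and 1.69 FPKM in 2i (-2.55 ± 0.63 and -3.49 ± 0.52). Krt8 lost its call without Serum E14 (adjusted p = 0.060), Serum Oct4 GiP (0.081) or 2i Oct4 GiP (0.052). Of 11 trophoblast markers tested 4 fell and 1, Tfap2a, rose (36.4% and 9.09%, against 18.9% and 21.7% of all tested genes). The median of the list was 0.20. The trophoblast factor Cdx2 was low, at 2.51, 0.854 and 1.59 FPKM in Serum and 0.8404, 0.137 and 0.395 FPKM in 2i. Hand1 stood at 4.17, 0.444 and 1.18 FPKM in Serum and 0, 0 and 0.0292 FPKM in 2i, and Elf5 under 0.1 FPKM in all 6 libraries. E14 in Serum was the highest library for both keratins, Hand1, Cdx2 and T, and it was also the highest in Serum for the actin genes Tagln and Cnn1. The part of such cells in the fall of the epithelial and actin lists was not tested.

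Of 23 endoderm markers 12 were below 1 FPKM in all 6 libraries, including Gata6, Sox17, Foxa2 and Afp. The summed level was 637.4, 478.8 and 537.4 FPKM in Serum and 420.9, 1001 and 1043 FPKM in 2i, most of it Apoe, which did not pass (0.64 ± 0.35). Of 11 endoderm markers tested 1 rose and 3 fell (9.09% and 27.3%, against 21.7% and 18.9% of all tested genes), with a median of 0.27. Gata4, the factor that rose (0.40 ± 0.13, adjusted p = 0.045), stood under 2 FPKM in all 6 libraries, and in 7 of the 9 fits without 1 library 0 members were higher. Lamb1, a laminin, fell from 33.3, 36.3 and 24.1 to 3.48, 7.97 and 6.01 FPKM (-2.28 ± 0.23, adjusted p = 0.0016). Of 19 mesoderm markers 5 were below 1 FPKM in all libraries, and the sum ran from 12.8 to 45.1 FPKM in Serum and from 14.7 to 20.4 FPKM in 2i. Of 7 mesoderm markers tested 4 fell and 2 rose (57.1% and 28.6%, against 18.9% and 21.7% of all tested genes). Gsc (goosecoid) rose from 0.964, 0.187 and 0.253 to 3.79, 5.43 and 7.06 FPKM (2.14 ± 0.27, adjusted p = 0.0025), while Wnt3 fell by 1.79 ± 0.27.

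Of 21 neural and ectoderm markers 8 were below 1 FPKM in all libraries, and the sum was 218.4, 200.7 and 226.0 FPKM in Serum against 194.0, 95.4 and 121.1 FPKM in 2i. Of 12 neural and ectoderm markers tested 4 fell and 1 rose (33.3% and 8.33%, against 18.9% and 21.7% of all tested genes), and 7 were not called. Nes (nestin) and Pax6 fell by 2.63 ± 0.32 and 1.88 ± 0.31, and Tubb3 did not pass (-0.49 ± 0.23). The part of more advanced neural cells in the falls of Ina, Crmp1 and Gap43 was not tested. Of 19 fibroblast feeder markers 9 were below 1 FPKM in all libraries, among them Col1a2, Col3a1 and Dcn. Their sum of 305.8, 125.1 and 165.5 FPKM in Serum and 149.0, 310.6 and 297.9 FPKM in 2i was mostly Fn1, which did not pass (1.12 ± 0.38). Of 9 feeder markers tested 4 fell and 1 rose (44.4% and 11.1%, against 18.9% and 21.7% of all tested genes), with a median of -0.34. The falls were Tagln (-4.75 ± 0.48), Acta2 (-1.47 ± 0.24), Col1a1 (-1.43 ± 0.41) and Thy1 (-1.18 ± 0.15). Col1a1 lost its call in 7 of the 9 fits without 1 library.

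The same fit gave the difference between 2i and Paused, where 5638 genes (44.4%) were called. Both comparisons use the 2i libraries, so the values are given side by side without a count of shared genes. Ctsb was 1.62 ± 0.08 higher in 2i than in Paused on the log2 scale and 1.498 ± 0.08 higher than in Serum. Cdkn1a differed by 2.98 ± 0.17 from Paused and by 2.105 ± 0.17 from Serum, and Hmgcs1 by 1.97 ± 0.21 and 1.202 ± 0.21. Lin28a differed by -3.85 ± 0.35 and -3.66 ± 0.35, and Myc by -3.701 ± 0.15 and -3.27 ± 0.15. Slc2a1 and Krt8 differed from Serum and were not called against Paused (-0.17 ± 0.18, adjusted p = 0.48, and 0.59 ± 0.63, adjusted p = 0.48). Paused levels of Cnn1 lay between those of 2i and Serum (-0.73 ± 0.20, adjusted p = 0.025). Nhp2, at 274, 228 and 277 FPKM in Paused, stood nearer to 2i than to Serum (-0.31 ± 0.07, adjusted p = 0.015).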

How the data were processed

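The data are RNA-seq libraries of mouse ES cells, 1 per line and condition, made from 250 ng of RNA, and 6 of the 9 (2i and Serum) were compared. The authors deposited FPKM values per gene, made with Cuffnorm on mm10 per the submitters' processing notes. No source used here gives the aligner, annotation, strand setting or Cuffnorm's scaling between libraries. The authors also deposited a normalized expression signal, which equals the FPKM of each library times 1 constant. Read counts were not used, so the depth is known only relative to E14 Serum.

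Of 29801 rows, 5644 carried no gene name and 113 repeated a row. The remaining 24044 were used, and 12711 reached an FPKM of 1 in 3 of 9 libraries. The 352 rows that join several symbols were assigned to no list. Values of all 9 libraries, as log2(FPKM + 1), entered limma-trend (R 4.3.3, limma 3.58.1) with the line as a block and Benjamini-Hochberg adjustment over all tested genes at 0.05, and every adjusted p given is of that fit unless another is named. A fold change on this scale understates the change of genes with low values. The fit was tested on simulated data. Same-line deviations of 2i and Serum correlated at 0.06, 0.13 and -0.0008, and different lines at -0.15 to 0.09. The block rests on the shared cell line.

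The genes of the comparison, the gene lists and the tests were chosen with earlier results of these data known, so lists are described by counts and medians only. Genes were named by a rule: per direction the 25 largest changes among called genes whose 3 lines had 1 sign and whose mean FPKM was at least 5, up to 4 per list with the largest change (2 where none was called), and a panel of pluripotency and pathway genes. Other list members were named after their values were seen. Some genes that the rule names are not reported here. The spellings of sterol, ATF4, CLEAR and E-box elements were chosen after the gene values were seen. Promoter windows are RefSeq's (GRCm38.p6, the build mm10), and 16 to 37 genes per list matched by symbol. Alternatives were the pseudocount, the filter, the scaling, the libraries in the fit and the block.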

Additional observations from a re-analysis of the deposited data

Results flagged for a closer look

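Rows without a gene name were outside the gene comparison. Of 2938 such rows that passed the filter, 220 were called between 2i and Serum (126 higher and 94 lower, 7.49%), against 40.6% of named genes.

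The median difference of 1 line had the opposite sign to that of another line in 9 lists, and in 4 of them the medians on both sides were beyond 0.2 on the log2 scale. With 1 library per line and condition, none of these differences between lines was tested. For DNA methylation writers and erasers the medians of E14, v6.5 and Oct4 GiP were -0.25, 0.27 and -0.36, a distance of 0.63 on the log2 scale. For interferon response genes they were -0.49, 0.67 and 0.51, a distance of 1.16. For endoderm markers they were -0.44, 0.53 and 0.07, a distance of 0.96, and for trophoblast markers -0.29, 0.47 and 0.32, a distance of 0.76. E14 lay below v6.5 in each of the 4. The remaining 5 were the Wnt, LIF, cyclin, Polycomb and 2-cell-like lists, the last with the widest distance, from -3.03 in E14 to 0.05 in v6.5.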

How the results depend on the processing

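The counts of genes called higher and lower (2762 and 2399) were recomputed under 19 alternatives. The fit without the replicate block called 2326 and 2042, the pseudocount of 0.1 2731 and 2429, the filter at an FPKM of 5 2018 and 1823 of 9309 genes, and no filter 2786 and 2593 of 20460. Centring gave 2181 and 3263. The 6-library fit gave 1645 and 1340, with fewer residual degrees of freedom. The authors' normalized columns, whose constant per library was lower in 2i within each line, gave 1240 and 4538. How that constant was made is not stated. Leaving out 1 library gave 1634 to 2747 higher and 1335 to 2689 lower genes. Without all libraries of Oct4 GiP the counts were 715 and 554, without v6.5 1448 and 1225, and without E14 2100 and 2002, with 2 lines left in each.

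Of 149 called genes chosen by the rule, 149 kept their direction under all alternatives and 123 were called without any 1 library. Apart from the panel, the rule took the largest changes among called genes, and in part required 1 sign in all lines. The kept direction was therefore largely set by the choice of genes. Neither count speaks for called genes outside the rule. Without the replicate block, 6 of the 149 were not called: T (adjusted p = 0.062), Ccnd2 (0.095), Pmaip1 (0.15), Oas1a (0.06), Gata4 (0.20) and Nanog (0.089). Where a median of a list turned on the authors' scale (Wnt, LIF, cyclins, oxidative phosphorylation, betaine, p53, interferon and endoderm lists), the direction of the list depends on the scaling. On that scale the larger count of calls also turned from higher to lower for oxidative phosphorylation (1 higher and 15 lower) and LIF genes (2 and 6). It turned likewise for cyclin (7 and 8), betaine (6 and 8), p53 (3 and 6) and interferon (5 and 6) genes. The count of Polycomb genes turned too (6 and 11), though their median was below 0 on both scales (-0.03 and -0.39). Small rises of single genes depended on the scaling as well. On the authors' scale Ndufb9 went from 0.51 to 0.14 and Ndufb4 from 0.57 to 0.20, and neither was called. Smaller rises, such as those of Stat3, Dnmt1 and Atp6v0d1, carry the same limit. Depth limits genes near an FPKM of 1, where few fragments stand behind a value.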

Other observations

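Several of the largest rises belong to no list. Aurkc, a meiotic Aurora kinase, measured 4.32, 2.08 and 4.46 FPKM in Serum and 85.7, 19.4 and 66.1 FPKM in 2i (3.46 ± 0.41, adjusted p = 0.0022), with 2i v6.5 well below the other 2i libraries. Ppp1r14d, an inhibitor of protein phosphatase 1, measured 0.941, 0.478 and 0.453 FPKM in Serum and 11.8, 25.1 and 17.5 in 2i (3.51 ± 0.27, adjusted p = 0.0009). Hebp1, a heme-binding protein, measured 22.6, 2.502 and 10.7 FPKM in Serum and 125, 52.2 and 95.2 in 2i (3.13 ± 0.31, adjusted p = 0.0016). Tuba3a, an alpha-tubulin, measured 25.3, 2.54 and 7.84 FPKM in Serum and 199, 49.1 and 56.1 in 2i (3.15 ± 0.33, adjusted p = 0.0017). For Hebp1 and Tuba3a, E14 had the highest level of the 3 lines in both conditions and v6.5 the lowest. Fam25c measured 48.4, 12.2 and 39.3 FPKM in Serum and 196, 227 and 348 in 2i (3.07 ± 0.38, adjusted p = 0.0025).

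Among falls, Plaur, the urokinase receptor, measured 24.8, 25.3 and 20.2 FPKM in Serum and 1.31, 3.86 and 3.13 FPKM in 2i (-2.76 ± 0.22, adjusted p = 0.00092). Sox11, a neural SOX factor, measured 4.13, 11.1 and 3.59 FPKM in Serum and 0.309, 0.939 and 0.339 in 2i (-2.13 ± 0.20, adjusted p = 0.0013), and v6.5 was the highest library in both conditions. Tfap2a, a factor of trophoblast and surface ectoderm, was the only trophoblast marker that rose, from 0.608, 0.547 and 0.549 to 1.68, 5.03 and 4.83 FPKM (1.54 ± 0.26, adjusted p = 0.0058).

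The widest differences of all rows were those of small RNA genes shorter than a library fragment, which jump between 0 and high FPKM. A row of Snord58b was listed at 0 in all Serum libraries and at 925, 1072 and 995 FPKM in 2i, and Snord19 at 0, 3131 and 2197 FPKM in Serum and at 0 in all 2i libraries. Such rows entered the counts of called genes and were not used to describe a list.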
